A study of Mus musculus with 36 samples.

Results

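The LPS by CCM interaction was examined in the 12 WT libraries of a series of 36, that is, which genes responded to CCM differently when LPS was present. BMDMs (bone marrow-derived macrophages, grown from marrow cells for 7 days with MCSF) came from adult female C57BL/6 mice. The WT animals carried floxed Bmal1 alleles without Cre, and the KO animals, used here only as a second measurement, carried the same floxed alleles with Cre driven by the myeloid LysM promoter. Cells received vehicle (DMSO), 100 µM CCM in DMSO, 100 nM LPS in DMSO or 100 nM LPS with 100 µM CCM for 6 h, with 3 WT and 6 KO libraries per treatment. The members are all 12 WT libraries, chosen by their labels and not by any value. The study's methods count 3 WT and 6 KO mice, and the labels do not say which libraries share a mouse. The fits here treat the libraries as separate samples, so p-values measure the spread between them, part of which may be technical. In bulk RNA, fewer cells of a type and less RNA per cell cannot be told apart.

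LPS comes from the outer membrane of Gram-negative bacteria, and TLR4 senses it. Its adaptors switch on NF-kB and AP-1 within hours, and a wave of type I interferon then turns on antiviral and antigen presentation genes, while genes of proliferation and lipid synthesis are turned down. CCM (Core Circadian Modulator) is a small molecule that binds the PASB domain of BMAL1, a transcription factor of the circadian clock. A gene shows an interaction when the log2 change from LPS to LPS+CCM differs from the log2 change from vehicle to CCM. The interaction is the first change minus the second, so that a negative value means that CCM moved the gene further down, or less far up, with LPS than without.

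Between 18043196 and 28288923 read pairs were counted on genes per WT library. All 10 macrophage markers passed the filter on low counts, with a summed level of 17200 to 21600 CPM (a gene's count scaled by the library total and TMM factor), while the summed T and NK cell and erythroid markers stayed at or under 2.8 and 6.41 CPM. Other lists were not near 0, with sums of 398 to 1590 CPM for fibroblast and stroma, 454 to 733 for neutrophil, 148 to 643 for osteoclast and 26.6 to 193 for B cell markers, and their part in the results was not tested. Mitochondrial genes took 1.31 to 1.45% of counts with vehicle or CCM and 0.959 to 1.04% with LPS or LPS+CCM. Vehicle replicate 3 stood apart in stromal and endothelial markers, with 27.2 CPM of Cdh5 (VE-cadherin) against 0.474 to 3.22 in the other 11 libraries, and 295 genes were called in the interaction without it. Of the KO libraries used below, replicate 6 stood apart in each treatment, with 0.2545 to 0.4489% mitochondrial and 4.981 to 8.05% ribosomal protein counts against 0.7544 to 1.567% and 1.94 to 3.882% in replicates 1 to 5. Within KO LPS+CCM, replicates 2 and 5 also had more ribosomal protein counts, 3 and 3.882% against 1.986, 1.94 and 2.104% in replicates 1, 3 and 4. The KO medians below were refitted without replicate 6 only.

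CCM acted differently with LPS on 308 of 14747 genes tested (2.09%), of which 239 (1.62%) had a more negative and 69 (0.468%) a more positive CCM response with LPS, by edgeR's quasi-likelihood test with p-values adjusted by the Benjamini-Hochberg method and a threshold of 0.05 ("called" below). Without LPS, CCM changed 75 genes (0.509%), 43 higher (0.292%) and 32 lower (0.217%). With LPS it changed 1456 (9.87%), 601 higher (4.08%) and 855 lower (5.8%). Among the 239 genes with a negative interaction were receptors for viral nucleic acid (Tlr7, Tlr3, Ifih1), interferon-inducible GTPases (Irgm1, Irgm2, Igtp, Iigp1), peptide transport for MHC class I (Tap1, Tap2), Il15 and Ccrl2. Among the 69 with a positive interaction were Glul, Tgfbi, Sesn1, Pparg, Hspa1a, and genes of cholesterol synthesis and DNA replication. Effects were modest, with a median interaction of -0.50 over the negative and 0.53 over the positive genes on the log2 scale, and 17 of the 308 reached 1 in size. The count of 308 was 149 to 295 with 1 library left out, 0 to 174 with a replicate number left out of every group, and 0 when all 36 libraries shared 1 estimate of the spread. The split into directions depended on the scaling. With library totals alone, 230 of 347 called genes were positive and 117 negative, and the median interaction of all genes was 0.11 in place of 0.02 with TMM factors.

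For the negative genes the difference lay mostly in the LPS-treated cells. Their median CCM change was 0.10 without LPS (interquartile range 0.01 to 0.19) and -0.41 with LPS (-0.53 to -0.31). Of the 239, 216 were also called lower with CCM under LPS, 10 were called higher with CCM in the absence of LPS, and 16 were called in neither. For the positive genes the median CCM change was -0.11 without and 0.47 with LPS, and 57 of the 69 were called higher with CCM under LPS, 5 were called lower and 3 higher without it. Both sets were selected on this difference in the same libraries, so opposite shifts without and with LPS are partly fixed by the selection. In KO, median CCM changes without and with LPS were 0.01 and -0.39 for the negative genes. For the positive genes they were -0.073 and 0.318.

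**Figure D1:**
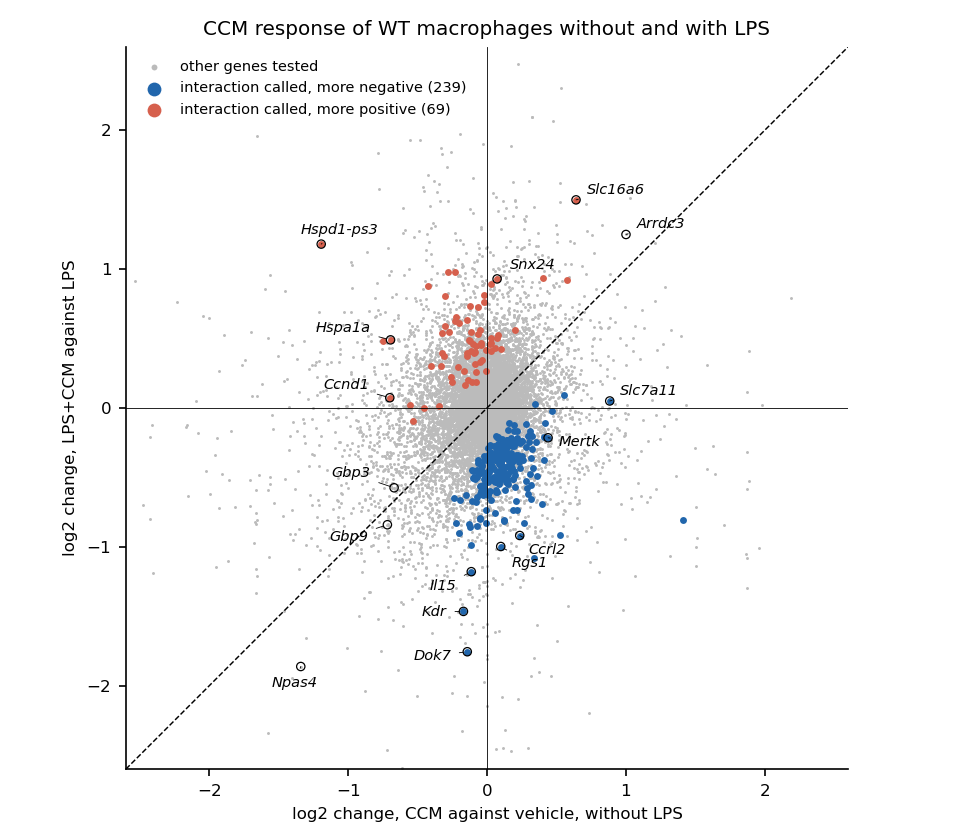
Log2 change with CCM in WT macrophages without LPS (horizontal axis) and with LPS (vertical axis), 1 point per gene, with the 239 and 69 genes called in the interaction in blue and red and equal changes on the dashed line. The blue genes lie mostly at and right of 0 on the horizontal axis and below 0 on the vertical axis, Gbp3, Gbp9, Arrdc3 and Npas4 lie near the dashed line, and 44 genes, none of them called, are outside the axes.

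The same interaction can be read as a change of the LPS response, since it equals the LPS change with CCM minus the LPS change without it. In the WT libraries that define the interaction, LPS without CCM raised the negative genes by a median of 1.56 and with CCM by 1.07, and it changed the positive genes by medians of -1.18 and -0.69. Over all genes, LPS changed 9479 (64.3%) without CCM, 4560 higher (30.9%) and 4919 lower (33.4%), and 8753 (59.4%) with CCM, 4373 higher (29.7%) and 4380 lower (29.7%). To sort genes by LPS response with libraries that the WT interaction does not use, LPS was compared with vehicle in the 12 KO libraries of those treatments, where 6507 of 14588 genes (44.6%) were called and it raised 3100 and lowered 3360 of the 14400 genes tested in both genotypes. Of the 239 negative genes, 202 (84.5%) were raised by LPS in KO, against 21.5% of all genes. Of the 69 positive genes, 51 (73.9%) were lowered by LPS in KO, against 23.3% of all genes. With TMM factors, the lean was not limited to called genes. With library totals alone the median interaction over all genes was 0.11 in place of 0.02. The medians and shares of the LPS classes below were not computed with that scaling. Over the 3100 LPS-raised genes the median WT interaction was -0.13, with 71.3% below 0, and the set medians were -0.11, -0.13 and -0.14 in the 3 replicate numbers. Over the 3360 LPS-lowered genes it was 0.15 (0.13, 0.14 and 0.14), and over the 7940 that LPS did not call it was 0.02. Without KO replicate 6, LPS called 9022 genes in KO, and the medians were -0.10, 0.12 and 0.03 over 4272 raised, 4684 lowered and 5474 other genes. In the same 3 classes the median CCM change without LPS was 0.006, 0.005 and -0.002, and with LPS it was -0.13, 0.153 and 0.016.

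The gene lists below were chosen with earlier results of these data known, so their shares of called members are descriptions and not tests. The share over all genes also varied with level and LPS response. It was 0.0868% under 1 CPM and 3.35% at 10 CPM or more without LPS. Of the genes that LPS raised in KO, 6.52% were called negative. Of 24 Toll-like receptor and adaptor genes, 4 were called (16.7%, against 2.09% of all genes), each of them negative, and 3 of these are receptors that sense nucleic acid in endosomes. Tlr7, which recognizes single-stranded RNA in endosomes, had the smallest adjusted p of all genes. It had 86.0, 85.2 and 86.1 CPM with vehicle, 97.4, 95.0 and 98.7 with CCM, 324, 321 and 324 with LPS and 245, 239.6 and 233 with LPS+CCM. The 3 LPS+CCM libraries lay below the 3 LPS libraries without overlap, while the CCM libraries lay above vehicle. The interaction was -0.61 (SE 0.06, edgeR adjusted p = 0.00122). Tlr7 lies on chromosome X, 167304929 to 167330558 (build GRCm38). Tlr3, the endosomal receptor for double-stranded RNA, had 9.12, 11.2 and 9.97 CPM with vehicle, 11.7, 9.79 and 11.3 with CCM, 98.2, 97.3 and 105 with LPS and 59.4, 59.4 and 53.0 with LPS+CCM, and an interaction of -0.93 (SE 0.12, edgeR adjusted p = 0.00294). Vehicle and CCM values of Tlr3 overlapped, and LPS and LPS+CCM values did not. Tlr8 went in opposite directions, from 112, 127 and 128 CPM with vehicle to 174, 145 and 150 CPM with CCM (log2 change 0.35, edgeR adjusted p = 0.0448) and from 202, 209 and 217 CPM with LPS to 179, 181 and 171 CPM with LPS+CCM (-0.24, adjusted p = 0.0458), an interaction of -0.60 (SE 0.10, edgeR adjusted p = 0.00828). These 3 receptors were called whichever of the 12 libraries was left out. Ripk2, the kinase that signals from NOD receptors, was the other called member (-0.56, SE 0.12, edgeR adjusted p = 0.0323), and lost the call in 9 of 12 such fits and with library totals alone. The list's median interaction was -0.15, against 0.02 over all genes.

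Of 55 antiviral interferon-stimulated genes tested, 8 were called (14.5%, against 2.09% of all genes), each of them negative (Ifih1, Isg20, Slfn8, Parp10, Tor3a, Parp9, Dtx3l and Sp100), and 46 had a value below 0, as did 6940 of all 14747 genes. The list's median interaction was -0.29. Ifih1, the cytosolic RNA sensor MDA5, had 28.1, 30.3 and 26 CPM with vehicle, 26.8, 26.9 and 30.0 with CCM, 938, 868 and 906 with LPS and 569, 544 and 519.8 with LPS+CCM. CCM left the level without LPS within the spread of vehicle (log2 change -0.01), and the LPS+CCM values lay well under those with LPS. The interaction was -0.72 (SE 0.09, edgeR adjusted p = 0.00294). Isg20, an exonuclease that degrades viral RNA, had 1.17, 2.0 and 1.33 CPM with vehicle, 1.66, 1.66 and 1.95 CPM with CCM, 159, 151 and 159.8 CPM with LPS and 93.8, 84.1 and 87.3 CPM with LPS+CCM, an interaction of -1.09 (SE 0.19, edgeR adjusted p = 0.0109). Slfn8 (-0.70, SE 0.13, edgeR adjusted p = 0.0124) and Parp10 (-0.47, SE 0.08, edgeR adjusted p = 0.0124) kept the call with any 1 library left out, as did Ifih1 and Isg20, the last of which lost it by voom. Tor3a, Parp9, Dtx3l and Sp100 lost it in 2, 6, 9 and 11 of the 12 fits, and these 4 also with library totals alone. Parp9 and Dtx3l overlap each other, Parp10 overlaps Plec, and whether counting used strand is unknown, so reads in shared stretches cannot be assigned. Many other genes described here also overlap an annotated gene, among them Tlr3, Glul, Sesn1, Setdb2, Kcnk13, Mertk, Slc15a3, Cdkn1a, Nfkb2, Il18, Aim2, Ska3, Fam216a, Tapbpl, Cxcl10, Ccnd1 and Tpi1.

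Of 20 interferon-inducible GTPases, which attack vacuoles that hold pathogens, 4 were called (20.0%, against 2.09% of all genes), each of them negative. A value below 0 was found in 17, as in 6940 of all 14747 genes. The list had the most negative median of the 35 lists (-0.55). Irgm1 had 31.1, 31.6 and 30.7 CPM with vehicle, 28.4, 32.8 and 36.2 with CCM, 596, 593 and 608 with LPS and 419.5, 424 and 412 with LPS+CCM, with no overlap between LPS and LPS+CCM, and an interaction of -0.58 (SE 0.09, edgeR adjusted p = 0.0068). Irgm2 (-0.63, SE 0.12, edgeR adjusted p = 0.0145) and Igtp (-0.57, SE 0.11, edgeR adjusted p = 0.016), which overlap each other on chromosome 11, lost the call in none and 1 of the 12 fits and had log2 CCM changes of 0.12 and -0.02 without and -0.50 and -0.59 with LPS. Iigp1 had 0.341, 0.455 and 0.432 CPM with vehicle, 0.474, 0.475 and 0.593 CPM with CCM, 156, 138 and 148 CPM with LPS and 76.3, 64.3 and 68.7 CPM with LPS+CCM, an interaction of -1.41 (SE 0.28, edgeR adjusted p = 0.019). Iigp1 passed the filter on low counts through the LPS groups, its value rests on few reads without LPS, and the call was lost without CCM replicate 3, without vehicle replicate 1 and by voom. In contrast, Gbp2, Gbp3 and Gbp9 of the guanylate-binding branch were called lower with CCM both without and with LPS. Gbp3 had 7.04, 7.56 and 7.81 CPM with vehicle, 4.50, 5.09 and 4.53 with CCM, 1256, 1259 and 1200.0 with LPS and 846, 840.4 and 809 with LPS+CCM. It fell with CCM by a log2 change of -0.67 without and -0.57 with LPS, and its interaction was 0.09 (95% interval -0.11 to 0.30). For Gbp2 and Gbp9 the intervals of the interaction were -0.19 to 0.38 and -0.47 to 0.22.

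Promoters of the negative genes were searched for the core of the interferon-stimulated response element (ISRE, GAAA and GAAA with NN between), an E-box (CACGTG, the motif bound by BMAL1 with CLOCK), an AP-1 site (TGANTCA) and an NF-kB site (GGGA and TTTCC with N between), on both strands of RefSeq windows from 250 bases before to 50 after each start. Windows were at hand for 178 of the 239 negative, 43 of the 69 positive and 10459 of the 14747 tested genes. The ISRE core was in a window of 19 negative genes (10.7%), 3 positive genes (6.98%) and 3.96% of all genes. The E-box was in 7.3% of negative, 6.98% of positive and 11.6% of all genes, the AP-1 site in 7.3, 6.98 and 6.55%, and the NF-kB site in 2.25, 2.33 and 0.583%. The NF-kB shares rest on 4 negative and 1 positive gene. Those of the E-box and the AP-1 site rest on 13 negative and 3 positive genes each. The windows of Ifih1, Irgm1 and Igtp, chosen after their values were seen, are shown because they hold the ISRE core, that of Gdf15 because it is the E-box window among the largest effects, and that of Tgfbi because a positive gene also holds an ISRE core. Bases are from build GRCm38.p6, 5′ to 3′ on the gene's strand, and capitals mark a match to any of the 4 motifs. In Irgm1, whose interaction is given above, 2 overlapping ISRE cores and 1 AP-1 site are marked. The 3 windows of Ccrl2 hold none of the 4.
Ifih1, minus strand, chr2:62646206-62646505: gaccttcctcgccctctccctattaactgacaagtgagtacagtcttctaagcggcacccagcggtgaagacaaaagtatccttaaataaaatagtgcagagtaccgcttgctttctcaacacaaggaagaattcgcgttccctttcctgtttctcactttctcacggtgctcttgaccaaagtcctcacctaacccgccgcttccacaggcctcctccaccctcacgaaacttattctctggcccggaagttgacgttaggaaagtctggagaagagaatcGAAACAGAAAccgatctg
Irgm1, minus strand, chr11:48871371-48871670: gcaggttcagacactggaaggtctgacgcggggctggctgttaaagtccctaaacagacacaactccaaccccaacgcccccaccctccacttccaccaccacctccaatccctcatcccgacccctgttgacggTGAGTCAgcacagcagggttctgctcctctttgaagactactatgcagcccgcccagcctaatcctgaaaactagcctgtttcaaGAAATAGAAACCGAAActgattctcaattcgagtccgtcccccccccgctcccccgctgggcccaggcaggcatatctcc
Igtp, plus strand, chr11:58199306-58199605: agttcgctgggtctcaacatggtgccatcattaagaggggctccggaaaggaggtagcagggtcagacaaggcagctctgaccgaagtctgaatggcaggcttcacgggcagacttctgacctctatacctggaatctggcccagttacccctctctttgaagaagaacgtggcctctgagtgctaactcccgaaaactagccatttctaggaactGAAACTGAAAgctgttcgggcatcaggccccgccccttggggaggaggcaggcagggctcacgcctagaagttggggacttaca
Gdf15, minus strand, chr8:70632046-70632345: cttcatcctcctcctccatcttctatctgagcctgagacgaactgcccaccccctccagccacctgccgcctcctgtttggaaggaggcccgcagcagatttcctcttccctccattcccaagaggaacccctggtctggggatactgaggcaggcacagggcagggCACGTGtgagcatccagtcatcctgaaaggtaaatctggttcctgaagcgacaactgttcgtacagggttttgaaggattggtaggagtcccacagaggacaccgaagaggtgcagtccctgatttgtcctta
Tgfbi, plus strand, chr13:56609336-56609635: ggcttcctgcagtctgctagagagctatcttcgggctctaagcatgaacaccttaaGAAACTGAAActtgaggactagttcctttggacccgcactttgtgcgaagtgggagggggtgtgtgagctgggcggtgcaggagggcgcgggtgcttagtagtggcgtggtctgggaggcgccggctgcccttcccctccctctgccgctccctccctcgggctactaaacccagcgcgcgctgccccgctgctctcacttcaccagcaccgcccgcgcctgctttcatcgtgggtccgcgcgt

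Of 22 genes of MHC class I presentation, 6 were called (27.3%, against 2.09% of all genes), each of them negative, and 3 with library totals alone. Tap1, which carries peptides into the endoplasmic reticulum, had 43.9, 44.1 and 40.1 CPM with vehicle, 42.9, 44.8 and 47.1 with CCM, 756, 729 and 777 with LPS and 544, 509 and 546 with LPS+CCM. The LPS+CCM libraries lay below the LPS libraries, and vehicle and CCM overlapped. The interaction was -0.58 (SE 0.08, edgeR adjusted p = 0.00316). Tap1 overlaps Psmb9, an immunoproteasome subunit that was called at -0.37 (SE 0.09, edgeR adjusted p = 0.0461). Nlrc5, the transactivator of MHC class I genes, had -0.62 (SE 0.09, edgeR adjusted p = 0.00468) and H2-Q4, a class I gene with close copies that make its counts uncertain, -0.49 (SE 0.09, edgeR adjusted p = 0.0152), and Tap2 and Tapbpl were the others. Tap2, Tapbpl and Psmb9 lost the call in 3, 7 and 11 of the 12 fits without a library and with library totals alone. The list's median interaction was -0.23, with a median CCM change of -0.02 without and -0.29 with LPS. None of 12 genes of MHC class II presentation was called (median 0.04).

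Of 30 costimulatory and checkpoint surface proteins, 4 were called negative and 1 positive (16.7% together, against 2.09% of all genes). Cd274, the checkpoint ligand PD-L1, had 59.0, 56.1 and 58.8 CPM with vehicle, 71.4, 64.6 and 57.5 with CCM, 1383, 1325 and 1317 with LPS and 1027, 1021 and 963 with LPS+CCM, and its interaction was -0.57 (SE 0.09, edgeR adjusted p = 0.00716). All 3 LPS+CCM values were lower than those with LPS alone. Cd83, a marker of activated antigen-presenting cells, had 30.4, 25.5 and 25.6 CPM with vehicle, 24.3, 24 and 26.8 with CCM, 33.1, 27.1 and 26.8 with LPS and 16, 12.5 and 15.5 with LPS+CCM, and its LPS change without CCM was 0.09 and not called. Its level fell with CCM when LPS was present, and the interaction was -0.87 (SE 0.16, edgeR adjusted p = 0.012). Both kept the call without any 1 library. Slamf7 (-0.58, SE 0.13, edgeR adjusted p = 0.0354) and Tnfrsf1b (-0.32, SE 0.08, edgeR adjusted p = 0.0447) lost it in 7 and 10 of 12 fits. Sirpa, an inhibitory receptor for CD47, was the positive member (0.29, SE 0.07, edgeR adjusted p = 0.0472), and lost it in each.

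The cytokine, chemokine and interferon lists had negative medians, and 2 of 31 cytokines (6.45%), 1 of 25 chemokines (4.0%) and 2 of 16 genes listed as interferon ligands and receptors (12.5%) were called, against 2.09% of all genes. The median interaction was -0.30 over 31 cytokines, -0.18 over 25 chemokines and -0.15 over 16 interferon ligands and receptors. Il15, which sustains NK and memory T cells, had 10.9, 10.1 and 8.80 CPM with vehicle, 9.10, 9.27 and 9.07 with CCM, 116, 99.7 and 103 with LPS and 51.9, 44.2 and 44.8 with LPS+CCM. CCM and vehicle overlapped, and every LPS+CCM value was lower than every LPS value. The interaction was -1.07 (SE 0.13, edgeR adjusted p = 0.00274). Il18, an inflammasome substrate, was the other called cytokine (-0.74, SE 0.18, edgeR adjusted p = 0.0465, lost in 10 of 12 fits), Ccl3 the called chemokine (-0.78, SE 0.17, edgeR adjusted p = 0.031, lost in 6), and Irf1 and Tyk2 the called members of the interferon list. Irf1, a transcription factor, had -0.60 (SE 0.13, edgeR adjusted p = 0.031) and lost the call in 7 fits. Tyk2, a kinase, had -0.40 (SE 0.09, edgeR adjusted p = 0.0415) and lost it in 11. Neither is an interferon ligand or receptor. Ccrl2, an atypical receptor that binds chemerin, had 19.2, 15.7 and 19.4 CPM with vehicle, 22.6, 19.4 and 22.3 with CCM, 492.8, 444 and 441 with LPS and 275, 225 and 229 with LPS+CCM (chromosome 9, 111054486 to 111057519). It rose with LPS less far when CCM was present, with an interaction of -1.15 (SE 0.14, edgeR adjusted p = 0.0024) that no single library removed.

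Some genes that LPS induces strongly were low without LPS, and their interactions had large SEs. Nos2, the inducible nitric oxide synthase, had 0.0757, 0 and 0.0617 CPM with vehicle, 0.237, 0.143 and 0.0847 with CCM, 360.5, 396 and 414 with LPS and 210.0, 202 and 201 with LPS+CCM. Its CCM change with LPS was -0.93 (edgeR adjusted p = 7.48e-06), and its interaction was -2.45 (SE 0.64, edgeR adjusted p = 0.0687), with at most 0.24 CPM in any library without LPS. Cxcl10, at most 2.14 CPM without LPS, had an interaction of -0.28 (SE 0.40, edgeR adjusted p = 0.831), and Edn1, at most 2.04 CPM, had -0.85 (SE 0.38, edgeR adjusted p = 0.332). Ptgs2, which was not low, had 14.5, 19.4 and 36.3 CPM with vehicle, 8.77, 16.3 and 25.1 with CCM, 1804, 1844 and 1511 with LPS and 772, 699 and 598 with LPS+CCM, with a wide spread without LPS, and an interaction of -0.82 (SE 0.43, edgeR adjusted p = 0.421). In the fit without the filter on low counts, Ptgs2 and Edn1 were called (edgeR adjusted p = 1.267e-12 and 0.01649). Both genes pass the filter, so their own counts were the same in both fits. The fit without the filter called 721 genes in place of 308, and the reason for the change was not tested. Nos2, Cxcl10, Edn1 and Ptgs2 were named after their values were seen. Of the 1456 genes called with CCM under LPS, 70 had a mean under 1 CPM without LPS, and the median SE of their interaction was 0.49, with 2 called. Among 1200 with at least 10 CPM the median SE was 0.10 and 253 (21.1%) were called.

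Regulators inside the LPS cascade had mostly negative values. Of 24 genes listed as NF-kB subunits and inhibitors, 22 had a value below 0 (6940 of 14747 over all genes), with a median of -0.26. In this list 3 were called (12.5%, against 2.09%), the subunits Nfkb2 (-0.38, SE 0.07, edgeR adjusted p = 0.0192) and Rel (-0.50, SE 0.12, edgeR adjusted p = 0.0429), and Tnfaip2 (-0.54, SE 0.10, edgeR adjusted p = 0.0148). Tnfaip2 is a TNF-induced gene that is neither a subunit nor an inhibitor. Nfkb2 and Rel lost the call in 4 and 10 of 12 fits without a library, and with library totals alone. Of 31 inflammasome and cell death genes, 5 were called (16.1%, against 2.09% of all genes), each of them negative. These were Casp8, the initiator caspase of death receptors (-0.48, SE 0.08, edgeR adjusted p = 0.00764), its inhibitor Cflar (-0.49, SE 0.11, edgeR adjusted p = 0.0397), the DNA sensor Aim2 (-0.50, SE 0.11, edgeR adjusted p = 0.0271) and the survival genes Bcl2a1b (-0.76, SE 0.15, edgeR adjusted p = 0.0163) and Bcl2a1d (-0.69, SE 0.15, edgeR adjusted p = 0.0339). Aim2, Bcl2a1d and Cflar lost the call in 7, 10 and 10 of 12 fits and with library totals alone. Bcl2a1b and Bcl2a1d are near-identical copies, so their counts are uncertain. Cdkn1a and Mdm2, targets of p53, were called at -0.70 (SE 0.13, edgeR adjusted p = 0.0158) and -0.50 (SE 0.10, edgeR adjusted p = 0.0224), and Mdm2 lost the call in 5 of 12 fits. Cdkn1a, which stops the cell cycle, had 74.6, 77.4 and 76.5 CPM with vehicle, 62.5, 69.5 and 66.7 with CCM, 909.8, 787 and 720.2 with LPS and 498, 408 and 392 with LPS+CCM, and its LPS and LPS+CCM values did not overlap.

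Rgs1, a brake on G protein signalling, differed from most genes above in that LPS lowered it. It had 272, 277 and 244 CPM with vehicle, 287, 282 and 281 with CCM, 114, 121 and 120.1 with LPS and 67.6, 48.0 and 62.3 with LPS+CCM. Without LPS the CCM libraries lay slightly above vehicle (0.10, not called), and with LPS they lay below LPS alone (log2 change -1.0, edgeR adjusted p = 2.71e-05). The interaction was -1.10 (SE 0.13, edgeR adjusted p = 0.0024) and was called without any 1 library. Pde7b (-0.79, SE 0.17, edgeR adjusted p = 0.0307), Rgs2 (-0.56, SE 0.13, edgeR adjusted p = 0.0465) and Rgs14 (-0.47, SE 0.11, edgeR adjusted p = 0.049) were the other called members of 31 RGS and cAMP genes, and lost the call in 6, 11 and 11 of 12 fits and with library totals alone. The 4 calls were 12.9% of the list, against 2.09% of all genes, and 16 of the 31 had a value below 0 (6940 of 14747 over all genes). The list's median of -0.03 turned above 0 with library totals alone. Arl4c, an LXR target that LPS also lowered, had -0.54 (SE 0.09, edgeR adjusted p = 0.00904).

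The most negative value with an average log2 CPM of at least 1 was that of Dok7, an adaptor of the receptor kinase MuSK. Dok7 had 2.80, 2.78 and 2.75 CPM with vehicle, 2.99, 2.23 and 2.33 with CCM, 7.44, 7.12 and 7.58 with LPS and 2.64, 2.43 and 1.5 with LPS+CCM. The LPS libraries stood apart from the other 9. Its LPS change was 1.41 without CCM and -0.20 (not called) with it. The interaction was -1.61 (SE 0.28, edgeR adjusted p = 0.01), called without any 1 library but not by DESeq2. Kdr, the VEGF receptor VEGFR2, had the same shape, with 6.13, 6.74 and 11.8 CPM with vehicle, 6.97, 7.89 and 7.33 with CCM, 21.5, 19.9 and 20.8 with LPS and 8.23, 7.23 and 7.09 with LPS+CCM, and an interaction of -1.30 (SE 0.27, edgeR adjusted p = 0.0266). It lost the call in 8 of 12 fits and by DESeq2, but not without vehicle replicate 3, whose value was the highest without LPS. Kdr was the 1 called gene among 6 endothelial markers. Vwf, the most abundant of them, had an interaction of -0.07, and the summed level of the 6 was 93.8 to 102 CPM with LPS and 70.9 to 78.6 with LPS+CCM. The part of endothelial cells in the Kdr value was not tested. Gdf15, a stress cytokine, had -1.09 (SE 0.24, edgeR adjusted p = 0.0305) and lost the call in 7 of 12 fits. Fzd1, a Wnt receptor, had -0.97 (SE 0.13, edgeR adjusted p = 0.00316) and lost it in none.

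Phf11c and Setdb2 lie 6627 bases apart on chromosome 14, and both were among the 12 most negative genes. Setdb2, a histone lysine methyltransferase, had 7.99, 9.84 and 9.14 CPM with vehicle, 10.9, 10.1 and 10.2 with CCM, 56.8, 51.1 and 54.1 with LPS and 31.6, 35.6 and 30.1 with LPS+CCM, with no overlap between LPS and LPS+CCM, and an interaction of -0.95 (SE 0.13, edgeR adjusted p = 0.00297). Phf11c had -1.44 (SE 0.31, edgeR adjusted p = 0.0268), which lost the call in 9 of 12 fits and by DESeq2. Phf11b, of the same family, was lowered by CCM without LPS (-0.62) and with it (-0.56), and its interaction was 0.06 (95% interval -0.23 to 0.35). March5, a ubiquitin ligase of the mitochondrial outer membrane, had 70.4, 71.3 and 70.1 CPM with vehicle, 69.4, 73.4 and 72.7 with CCM, 291, 279 and 310.3 with LPS and 190.3, 188 and 202 with LPS+CCM and an interaction of -0.62 (SE 0.07, edgeR adjusted p = 0.0024), and overlaps Cpeb3. Pla2g16, a phospholipase, had -0.93 (SE 0.19, edgeR adjusted p = 0.0199), lost in 3 of 12 fits.

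A smaller group of negative genes rose with CCM in the absence of LPS and responded less or not at all with it. Slc7a11, the cystine transporter that feeds glutathione synthesis, had 27.0, 27.1 and 33.2 CPM with vehicle, 57.8, 51.2 and 52.6 with CCM, 1773, 1395 and 1212 with LPS and 1731, 1461 and 1346 with LPS+CCM. Without LPS the CCM libraries lay above vehicle (log2 change 0.88, edgeR adjusted p = 0.0124), and with LPS the groups overlapped (0.05). Its interaction of -0.83 (SE 0.18, edgeR adjusted p = 0.0335) lost the call in 9 of 12 fits and with library totals alone. Mertk, the receptor for engulfing dead cells, had 124, 119 and 146 CPM with vehicle, 189, 168 and 171 with CCM, 127, 128 and 119.6 with LPS and 111, 103 and 109.5 with LPS+CCM. CCM raised it without LPS (0.44, adjusted p = 0.0174), its change with LPS was -0.21 and not called, and the interaction was -0.65 (SE 0.11, edgeR adjusted p = 0.00663), with no call lost in the 12 fits. Clec4d, a C-type lectin receptor for mycobacterial lipid, was at 0.55 without and 0.09 with LPS (-0.46, SE 0.09, edgeR adjusted p = 0.0224), and its interaction lost the call in 5 of 12 fits. Tgm2, Cyth1, Ric1 and Tnfrsf1b completed the 7 genes with this pattern.

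CCM changes called in opposite directions occurred in 3 genes, Tlr8, Slc15a3 and Trim25. Slc15a3, a peptide and histidine transporter of endolysosomes, had 673, 662 and 687 CPM with vehicle, 774, 779 and 828 with CCM, 2484, 2546 and 2479 with LPS and 2106, 2079 and 2130.0 with LPS+CCM. Trim25, a ubiquitin ligase that activates the RNA sensor RIG-I, had 182, 183 and 179 CPM with vehicle, 222, 207 and 219 with CCM, 482, 471 and 476 with LPS and 413, 411 and 386 with LPS+CCM. In both, the CCM libraries lay above vehicle and the LPS+CCM libraries below LPS, with no overlap. The CCM changes of Slc15a3 were 0.24 and -0.25, with an interaction of -0.49 (SE 0.06, edgeR adjusted p = 0.00294), and those of Trim25 were 0.25 and -0.24, with an interaction of -0.49 (SE 0.06, edgeR adjusted p = 0.00297).

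**Figure D2:**
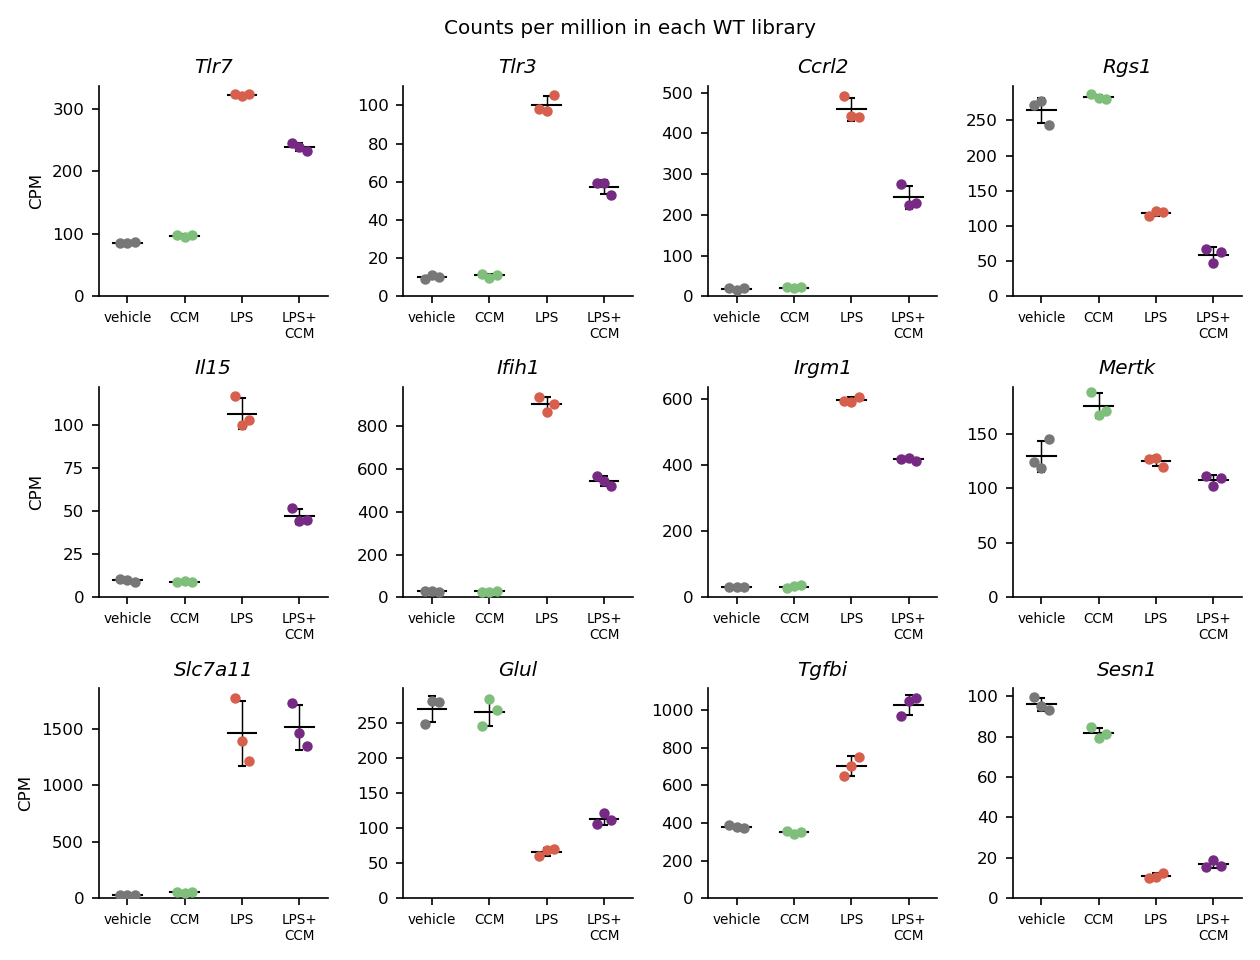
CPM (vertical axes, from 0) of 12 genes in each WT library, grouped by treatment, with the mean as a line and the SD (n = 3) as a bar. In Tlr7, Tlr3, Ccrl2, Rgs1, Il15, Ifih1 and Irgm1 the LPS+CCM libraries are below LPS, in Mertk and Slc7a11 CCM is above vehicle, and in Glul, Tgfbi and Sesn1 LPS+CCM is above LPS.

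Positive interactions were led by genes that LPS lowers. Glul, glutamine synthetase, had 249, 282 and 279.6 CPM with vehicle, 245, 284 and 268 with CCM, 59.7, 69.1 and 70.2 with LPS and 105, 121 and 111 with LPS+CCM. Vehicle and CCM overlapped, and LPS lowered the gene less far when CCM was present. The interaction was 0.78 (SE 0.11, edgeR adjusted p = 0.00331). Snx24, a sorting nexin, had 41.0, 40.1 and 40.4 CPM with vehicle, 43.8, 41.4 and 42.6 with CCM, 5.92, 6.05 and 5.80 with LPS and 11.3, 10.4 and 12.2 with LPS+CCM and an interaction of 0.86 (SE 0.10, edgeR adjusted p = 0.0024), the smallest adjusted p among positive genes. Its LPS+CCM values were all above the LPS values. Kcnk13, a potassium channel, had 60.6, 63.9 and 52.2 CPM with vehicle, 65.9, 63.2 and 51.4 with CCM, 20.0, 19.6 and 16.6 with LPS and 39.5, 34.5 and 30.2 with LPS+CCM and 0.86 (SE 0.17, edgeR adjusted p = 0.0173). No single library removed these 3 calls.

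Sesn1, a stress-induced brake on the growth kinase mTORC1, had 99.5, 95.2 and 93.2 CPM with vehicle, 84.6, 79.4 and 81.5 with CCM, 9.82, 10.6 and 12.4 with LPS and 15.7, 18.9 and 16.1 with LPS+CCM. CCM libraries were under vehicle and LPS+CCM libraries over LPS, the latter called at 0.62 (edgeR adjusted p = 0.000769). The interaction was 0.85 (SE 0.12, edgeR adjusted p = 0.00326). Pparg, the nuclear receptor that drives lipid uptake and storage, had 47.7, 46.6 and 44.6 CPM with vehicle, 36.4, 38.0 and 36.4 with CCM, 2.62, 2.45 and 3.44 with LPS and 3.5, 4.59 and 4.35 with LPS+CCM and 0.87 (SE 0.16, edgeR adjusted p = 0.015), lost in 3 of 12 fits. Tgfbi, an extracellular matrix protein, was among the 8 of 69 positive genes that LPS raised, with 389, 378 and 375 CPM with vehicle, 358, 344 and 354 with CCM, 647, 704 and 753 with LPS and 967, 1048 and 1066 with LPS+CCM. Its LPS+CCM values were the highest of the 4 groups, and its interaction was 0.66 (SE 0.08, edgeR adjusted p = 0.00274), called without any 1 library.

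**Figure D3:**
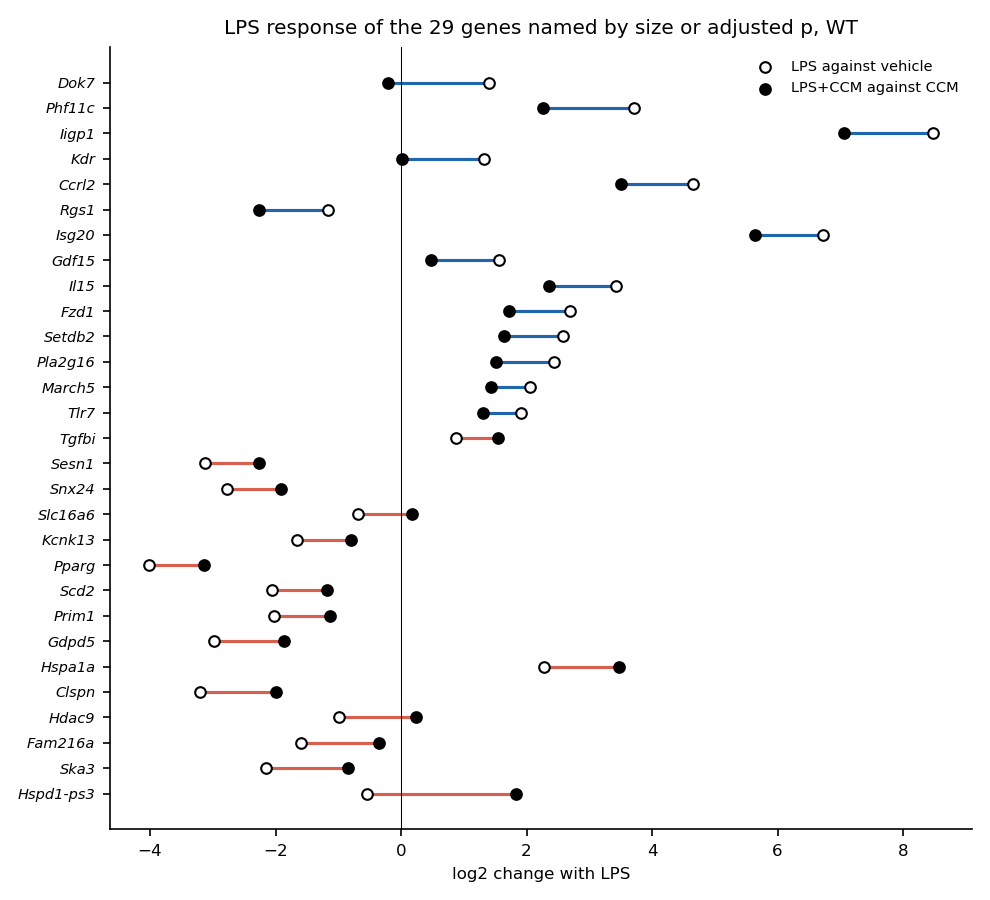
Log2 change with LPS (horizontal axis) without CCM (open circles) and with CCM (filled circles) for the 29 genes named by size or adjusted p, joined by blue lines where the interaction was negative and red lines where it was positive. In Dok7 and Kdr the filled circle lies near 0, in most red genes LPS lowered the gene less far with CCM, and in Rgs1 further.

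All 24 genes of cholesterol synthesis had a value above 0 (7805 of all 14747 genes did), with a median interaction of 0.19, and a median CCM change of -0.22 without and -0.004 with LPS. Sqle, squalene epoxidase and a called member of the list, had 64.0, 63.5 and 64.7 CPM with vehicle, 45.2, 49.6 and 45.7 with CCM, 82.9, 76.6 and 83.2 with LPS and 80.2, 80.7 and 82.1 with LPS+CCM. The CCM libraries lay below vehicle, and LPS+CCM overlapped LPS. Its CCM change was -0.45 (edgeR adjusted p = 0.00278) without and 0.00 with LPS, an interaction of 0.45 (SE 0.08, edgeR adjusted p = 0.00801). The fatty acid genes Fasn (0.44, SE 0.09, edgeR adjusted p = 0.0192) and Scd2 (0.88, SE 0.20, edgeR adjusted p = 0.042) were called too, and lost the call in 5 and 10 of 12 fits. Scarb1, the HDL receptor, had 0.48 (SE 0.08, edgeR adjusted p = 0.00931), lost in none.

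Cell cycle and DNA replication genes had the most positive median of the lists (0.39), with a median CCM change of -0.21 without and 0.18 with LPS. A value above 0 was found in 34 of 39 (7805 of 14747 over all genes), and 3 were called (7.69%, against 2.09% of all genes). Called were Mcm5 (0.71, SE 0.16, edgeR adjusted p = 0.0367), of the replicative helicase, the cyclin Ccnd1 (0.77, SE 0.18, edgeR adjusted p = 0.0461) and the transcription factor E2f1 (0.60, SE 0.14, edgeR adjusted p = 0.0471). Ccnd1 had 55.6, 71.5 and 58.6 CPM with vehicle, 34.1, 37.4 and 42.6 with CCM, 11.7, 11.7 and 15.2 with LPS and 11.9, 15.2 and 13.7 with LPS+CCM, so that CCM lowered it without LPS (-0.70, edgeR adjusted p = 0.0186) and the LPS groups overlapped. Outside the list, the replication genes Clspn (1.21, SE 0.26, edgeR adjusted p = 0.0274) and Prim1 (0.89, SE 0.20, edgeR adjusted p = 0.0389) and the kinetochore gene Ska3 (1.31, SE 0.29, edgeR adjusted p = 0.0324) were among the 12 most positive. Each of these 6 lost the call in 7 to 9 of 12 fits, and Clspn, Prim1 and Ska3 also by DESeq2.

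Slc16a6, a transporter of the monocarboxylate family, and 2 other genes rose with CCM in both states and further with LPS. Slc16a6 had 17.1, 20.3 and 21.9 CPM with vehicle, 32.5, 29.1 and 31.1 with CCM, 12.4, 12.4 and 12.3 with LPS and 34.2, 38.9 and 31.7 with LPS+CCM, with CCM changes of 0.64 and 1.5 and an interaction of 0.86 (SE 0.14, edgeR adjusted p = 0.00658), called without any 1 library. It overlaps Amz2 and Arsg. Xpo1, the nuclear export receptor, had 84.5, 98.3 and 93.1 CPM with vehicle, 139, 133 and 138 with CCM, 106, 107 and 108 with LPS and 208, 202 and 196 with LPS+CCM, and changed by 0.58 and 0.92 (0.35, SE 0.08, edgeR adjusted p = 0.037). Hmgn1, which binds nucleosomes, changed by 0.40 and 0.94 (0.53, SE 0.11, edgeR adjusted p = 0.0236). Of 30 glycolysis and lactate genes, 3 were called (308 of 14747 over all genes). These were Slc16a6, Pdk1 (0.63, SE 0.13, edgeR adjusted p = 0.0258) and Tpi1 (0.53, SE 0.12, edgeR adjusted p = 0.0389). Pdk1 and Tpi1 lost the call in 7 and 8 of 12 fits. The list had no common direction, with 13 values below and 17 above 0 and a median of 0.09.

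Heat shock and cochaperone genes had a median of 0.13, with 16 of 21 above 0 (7805 of 14747 over all genes). In this list 2 were called (9.52%, against 2.09% of all genes). Hspa1a, the inducible HSP70, had 1.40, 2.23 and 2.35 CPM with vehicle, 1.33, 1.09 and 1.27 with CCM, 9.46, 9.84 and 9.95 with LPS and 12.3, 12.8 and 16 with LPS+CCM. CCM values without LPS were at or below the lowest vehicle value, and LPS+CCM values were above LPS, though neither change was called alone, and the interaction was 1.19 (SE 0.27, edgeR adjusted p = 0.0374). It lost the call in 10 of 12 fits and by DESeq2, and its counts are uncertain because Hspa1b is a near-identical copy. Bag3, its cochaperone, had 0.34 (SE 0.08, edgeR adjusted p = 0.0437) and lost it in each. Hspd1-ps3, a pseudogene of the chaperonin Hspd1, had the largest positive value of all called genes (2.37, SE 0.46, edgeR adjusted p = 0.0177). Its reads may belong to the parent gene, so it is uncertain. Hdac9, a histone deacetylase, had 1.23 (SE 0.27, edgeR adjusted p = 0.0339), Gdpd5 1.11 (SE 0.23, edgeR adjusted p = 0.0232) and Fam216a 1.26 (SE 0.30, edgeR adjusted p = 0.0464), which were lost in 9, 5 and 12 of 12 fits and, with Hspd1-ps3, by DESeq2.

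**Figure D4:**
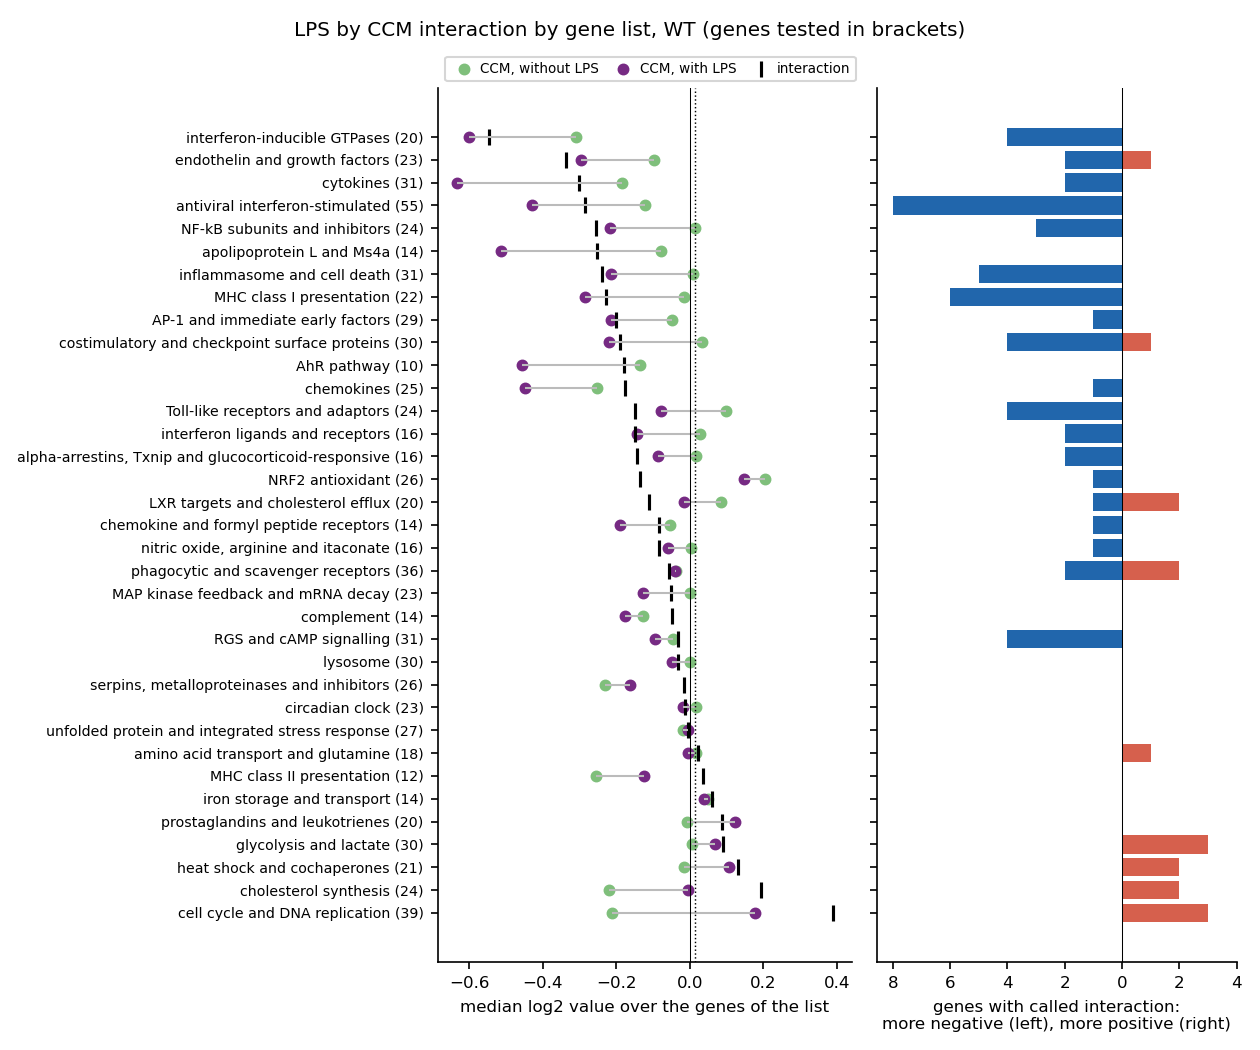
Median log2 values over the genes of 35 lists for CCM without LPS (green), CCM with LPS (purple) and the interaction (black bars) on the left, with a dotted line at the median interaction of all genes, and the number of members called in the interaction on the right. Interferon-inducible GTPases are lowest at -0.55 and cell cycle genes highest at 0.39, and 15 lists have negative calls alone, 5 positive calls alone, 4 both and 11 none.

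Across the 35 lists, 71 of the 308 called genes had a place and 237 had none. With library totals alone the median of 10 lists turned from negative to positive (RGS and cAMP, chemokine receptors, nitric oxide and arginine, phagocytic receptors, MAP kinase feedback, clock, complement, lysosome, serpins and metalloproteinases, and unfolded protein response), each of which lay within 0.1 of 0 with TMM factors, and RLE factors turned none. Of 23 circadian clock genes 0 were called, with a median of -0.01, which at the 2.09% of all genes is near the background for a list of this size. Arntl, the gene of BMAL1, had 7.50, 8.88 and 10.1 CPM with vehicle, 9.43, 8.80 and 11.5 with CCM, 10.5, 8.28 and 9.61 with LPS and 13.3, 11.8 and 12.9 with LPS+CCM, groups that overlapped without LPS, and an interaction of 0.26 (SE 0.20, edgeR adjusted p = 0.632). No member was called among the genes of prostaglandins and leukotrienes (20), AhR (10), complement (14), unfolded protein response (27), lysosome (30) and iron (14), and the same reading applies.

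Genes that CCM moved in the same direction without and with LPS form the counterpart. CCM changes were called in the same direction in both states in 36 genes, of which 33 were not called in the interaction, 17 lower and 16 higher with CCM. A missed threshold does not show equal responses, but in 26 of the 33 the 95% interval of the interaction lay within 0.5 on either side of 0. Arrdc3, an alpha-arrestin, had 34.0, 46.3 and 42.5 CPM with vehicle, 83.5, 84.2 and 78.0 with CCM, 11.1, 12.2 and 9.45 with LPS and 25.4, 26.3 and 26 with LPS+CCM. It rose in both states, with log2 changes of 1.0 and 1.25, and its interaction was 0.25 (-0.10 to 0.60). Npas4, an immediate early transcription factor, had 6.28, 4.74 and 4.29 CPM with vehicle, 1.66, 2.42 and 1.95 with CCM, 0.915, 0.934 and 1.04 with LPS and 0.184, 0.324 and 0.269 with LPS+CCM. Its log2 changes were -1.34 and -1.86, and its interaction was -0.52 (-1.46 to 0.42), an interval that allows sizeable differences. Hmox1, heme oxygenase, rose by 0.60 and 0.49 (interval -0.47 to 0.24) and Abca1, the cholesterol exporter, by 0.58 and 0.43 (-0.51 to 0.21). Ahrr, the AhR repressor, fell by 0.78 and 0.94 (-0.48 to 0.17), and Gbp2, Gbp3, Gbp9, Xaf1 and Ube2l6 were the interferon-induced members of the 17.

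The interaction was then measured in the KO libraries, which share none with WT. Arntl itself had 6.405 to 7.35 CPM (group means) in KO, a count over the whole gene that can include exons outside the deleted part and so does not check the deletion. Of 14588 genes tested in KO, 1 (0.00685%) was called, Glul, and 536 had an unadjusted p under 0.05. The KO groups were more variable, with a biological coefficient of variation of 0.333 against 0.0984 in WT, and replicate 6 stood apart. Without replicate 6, 10 genes were called. Of the genes called in WT, 237 of the 239 negative genes (99.2%) had a value below 0 in KO, against 46.6% of all genes, and their median was -0.40 in KO. Of the 69 positive genes, 68 (98.6%) were above 0 in KO, with a median of 0.39. The exceptions were Psmb9 (0.09 in KO), the low-count Gm16094 (-2.22 in WT, 0.87 in KO) and Hspd1-ps3 (-0.24 in KO). By KO replicate the median over the 239 genes was -0.31, -0.66, -0.33, -0.41, -0.49 and -0.19, and over the 69 it was 0.39, 0.47, 0.29, 0.37, 0.29 and 0.55, with no overlap between the sets and medians of -0.01 to 0.07 over all genes. Without replicate 6, the fit gave medians of -0.43 and 0.36.

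Gene by gene, Glul had an interaction of 0.78 in WT (SE 0.11) and 0.78 in KO (SE 0.12, edgeR adjusted p = 0.0334). Tlr7 was at -0.61 and -0.72 (SE 0.36), Tlr3 at -0.93 and -0.72 (SE 0.23), Il15 at -1.07 and -0.77 (SE 0.20) and Dok7 at -1.61 and -1.35 (SE 0.30). Tgfbi was at 0.66 and 0.70 (SE 0.17), Snx24 at 0.86 and 0.79 (SE 0.26) and Hspa1a at 1.19 and 1.20 (SE 0.25). Values were closer to 0 in KO for Iigp1 (-1.41 and -0.03, SE 0.73), Isg20 (-1.09 and -0.22, SE 0.26) and Clspn (1.21 and 0.16, SE 0.32). The difference of the interaction between WT and KO was called for 0 of 15720 genes by edgeR (124 at an unadjusted p under 0.05, and 0 by DESeq2, and 0 without KO replicate 6), with adjusted p = 0.9999 for each gene named here. The SE of the difference was 0.20 for Glul, 0.54 for Tlr7 and 0.56 for Iigp1, so equal interactions are not shown. Over the lists, the KO median was 0.02 for antiviral genes and 0.16 for interferon-inducible GTPases, where WT had -0.29 and -0.55, while it was -0.16 for Toll-like receptors, 0.22 for cholesterol synthesis and 0.24 for the cell cycle, where WT had -0.15, 0.19 and 0.39. These list differences were not tested.

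**Figure D5:**
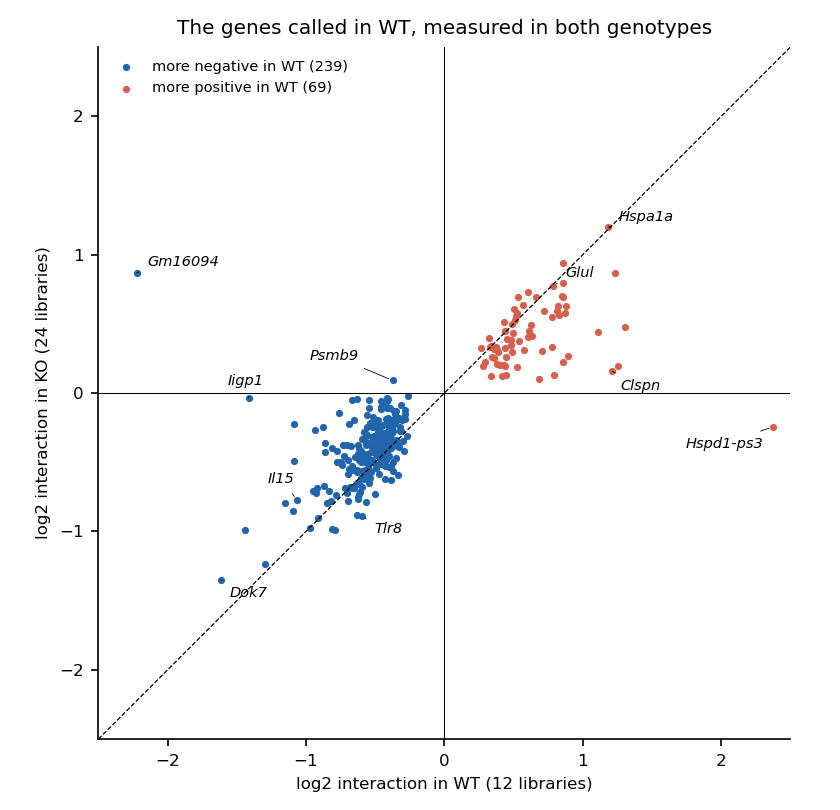
Log2 interaction in WT (horizontal axis, 12 libraries) and in KO (vertical axis, 24 libraries) for the 308 genes called in WT, with equal values on the dashed line. The blue genes have a KO median of -0.40 and the red genes of 0.39, Psmb9, Gm16094 and Hspd1-ps3 lie on the opposite side of 0 in KO, and Iigp1 lies near 0.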

How the data were processed

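The authors deposited 1 table of raw gene counts for 36 libraries. The deposited counts were made with fastp, HISAT2 2.0.5 and featureCounts 1.5.0-p3 per the labels and the study's methods, and a strand setting is not given in the sources used here. Samples were grouped by their labels, and each of the 36 count columns entered a fit. The members were chosen by their labels, and the gene lists were chosen with earlier results of these data known.

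The 12 WT libraries were fitted by group with edgeR 4.0.16 (R 4.3.3), after filterByExpr and TMM scaling, by the quasi-likelihood test, and p-values were adjusted over all 14747 genes tested by Benjamini-Hochberg. The interaction was the CCM effect with LPS minus that without. KO libraries were fitted in the same way, and a joint fit gave the WT and KO difference. CPM used TMM-scaled totals. Intervals of the interaction used the 8 residual degrees of freedom of the WT design. Named were the 12 largest values in each direction whose average log2 CPM reached 1 and whose sign held in 3 of 3 sets of libraries with 1 replicate number, the 3 smallest adjusted p in each direction, the called members of the lists, Npas4 and Arntl. Other genes were named after their values were seen. One called list member is not reported here. Alternatives were DESeq2 1.42.0, RLE factors, library totals, no filter beyond 1 count, voom with quality weights (limma 3.58.1), a replicate block, all 36 libraries, and leaving out libraries. The fits were also run on simulated counts with seeded interactions. There the fit of the WT and KO difference missed the seeded changes, and the KO fit recovered them less often than the WT fit. The absence of calls for that difference therefore does not show equal interactions. Counts of the fits that lost a call are of the 12 fits that each leave out 1 WT library. Totals of 18043196 to 28288923 set the precision, which is low under 1 CPM.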

Additional observations from a re-analysis of the deposited data

Results flagged for a closer look

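The interaction itself is a test of whether the CCM effect differs between LPS-treated and untreated WT macrophages, and it was past the threshold in 308 genes. In 3 genes, Tlr8, Slc15a3 and Trim25, CCM effects were called in opposite directions without and with LPS, and the difference was called in each. Among 29 genes named by size or adjusted p, 0 had a KO replicate whose interaction lay far from the other 5, a check in which chance marks about 1 in 20 groups.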

How the results depend on the processing

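The number of genes called in the interaction was 308, and it was 696 by DESeq2, 721 with no filter beyond 1 count, 361 with RLE factors, 347 with library totals alone and 447 by voom. In a fit of all 36 libraries, whose common biological coefficient of variation was 0.291 against 0.0984 in WT, it was 0 (323 at an unadjusted p under 0.05). Leaving out 1 library gave 149 to 295, and the count fell by over 1.5 times without CCM replicate 1 (203), 2 (204) or 3 (181), LPS replicate 1 (186) or 2 (158), LPS+CCM replicate 2 (152) or 3 (149) and vehicle replicate 2 (200). Leaving out a replicate number from every group gave 0 to 174, with 2 libraries per group. For CCM without LPS (75) the values were 307 by DESeq2, 670 without the filter, 122 by voom, 0 in the fit of 36, 8 from the 6 libraries alone, 8 to 84 without 1 library and 0 to 40 without a number. For the CCM effect with LPS in WT (1456) they were 2282 by voom, 17 in the fit of 36, 857 to 1644 and 256 to 1116. In the fit of 36, the LPS effect without CCM in WT was called in 5644 genes and the LPS effect with CCM in WT in 4883. The KO interaction (1) was 12 by DESeq2, 0 without the filter, 100 by voom and 0 to 10 without 1 KO replicate. The interaction of Cxcl10, not called, ranged from -0.68 to 0.06 over the fits without 1 library, with the sign turned without vehicle replicate 3, and was 0.39 without replicate number 3. Of 88 called named genes, 23 lost the call with library totals alone, 11 by DESeq2, and 35 kept it without each of the 12 libraries. The causes of these differences were not tested.

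The labels do not tie replicate numbers to animals. Deviations of WT libraries with the same number correlated at 0.0602 to 0.4282, over 0.1 in 15 of 18 pairs and in all pairs of numbers 1 and 3, and those with different numbers at -0.3635 to 0.0469. This is a hint from the data that numbers mark a shared source, but not every pair passed 0.1, so the numbers were not used as pairs in the report. A block on that number gave 548 called genes in the interaction (including all 308), 282 for CCM without LPS and 81 in KO.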
